A study of Komagataella pastoris with 6 samples.

Results

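The genes described here carry proteins into the endoplasmic reticulum (ER) of the methylotrophic yeast *Komagataella phaffii* and move them onward in vesicles to the Golgi, the plasma membrane and the vacuole. They were chosen by the text of the KEGG orthology description in the gene table, as rows naming the signal recognition particle (SRP), the signal peptidase, a translocation protein, protein disulfide-isomerase, coatomer, a protein transport protein, TRAPP, the exocyst, a SNARE or a syntaxin. The rule took 61 of the 5427 genes in the table and used no measured value. Only 3028 genes carried such a description, so secretory genes known by a protein name alone, such as epsilon-COP, fell outside it. No row was dropped for naming mitochondria or a peroxin.

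RNA was sequenced from cultures grown for 24 h in YPA, a rich medium of yeast extract, peptone and acetate. *GS115* is a histidine auxotroph (*his4*), although the labels also call it wild type, and *X33* is a histidine prototroph (*HIS4*). The 3 groups were *GS115* in YPA (GS115-YPA, sequenced as A and B), *X33* in YPA (X33-YPA, sequenced as C and D) and, as libraries E and F, *GS115* in the same medium plus 650 µM histidine (GS115-YPAH5x). Total RNA was depleted of rRNA, and every group had 2 libraries. The study asked how histidine auxotrophy and histidine supply alter the transcriptome during growth on acetate, so both comparisons below set a group with intact histidine supply against GS115-YPA and share that control. A further comparison, X33-YPA against GS115-YPAH5x, tested the difference between those groups directly.

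Proteins destined for secretion carry a signal sequence that SRP recognises on the ribosome and delivers to its receptor at the ER, or that the SEC62/SEC63 complex receives after translation. They pass the membrane through the SEC61 channel, lose the signal sequence to signal peptidase and gain disulfide bonds from protein disulfide-isomerases. COPII-coated vesicles carry them to the Golgi, COPI-coated vesicles (whose coat is coatomer) return material to the ER, tethers such as TRAPP and the exocyst catch vesicles at their targets, and SNARE proteins fuse the membranes. *K. phaffii* is widely used to secrete heterologous proteins. Roles given below are known mainly from *Saccharomyces cerevisiae*.

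The libraries held 32194047 to 43447246 counts, of which the 61 genes took 0.35% to 0.506%. The lowest count of a member in any library was 57. Levels are CPM, counts per 1000000 counts of a library after TMM scaling, with no correction for gene length, so levels were compared between libraries and not between genes. The 10 most abundant genes took 27.5% and 28.5% of counts in GS115-YPA and 21.4% to 23.1% in the other groups. With those genes left out before scaling, 27 members were higher and 17 lower in X33-YPA, and 23 and 12 in GS115-YPAH5x. The GS115-YPA duplicates lay farthest apart. There, 8 of the 61 members differed by over 1.5-fold between duplicates against 0 in each other group. With duplicate cultures, a p-value measures only the spread between these libraries. *HIS4* itself stood at 365 and 501 CPM (GS115-YPA), at 187 and 220 CPM (X33-YPA) and at 207 and 181 CPM (GS115-YPAH5x). The *his4* locus thus had reads in *GS115*, and its level is no check of the labels. In bulk RNA, fewer cells in a given state and less RNA per cell cannot be told apart. The *HIS4* allele and anything else that differs between the strains cannot be told apart in X33-YPA. Growth of the sampled cultures was not analysed here, and its part in any difference was not tested.

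In X33-YPA, 27 of the 61 secretory genes rose and 17 fell relative to GS115-YPA at an adjusted p under 0.05 (edgeR quasi-likelihood test, Benjamini-Hochberg over all genes). That is 44.3% and 27.9% of the members, beside 33.4% higher and 32.8% lower among all 5426 genes tested. The median log2 fold change of the members was 0.30, beside 0.01 over all genes. At a log2 fold change of 1 or more, 18 members rose, beside 15.7% of all genes, and at -1 or less, 4 fell, beside 17.1% of all genes. The rises were spread unevenly over the pathway and took in every listed coatomer and translocon gene. The members' median was 0.18 without library C and 0.195 without library D. The libraries of X33-YPA and GS115-YPA did not overlap for 52 of the 61 members, beside 81.5% of all genes, so that the absence of overlap sets few genes apart here.

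In GS115-YPAH5x, 23 members rose and 11 fell relative to GS115-YPA, which is 37.7% and 18.0% of the members beside 30.7% and 29.1% of all genes. Their median log2 fold change was 0.21, beside 0.000515 over all genes. At a log2 fold change of 1 or more, 9 members rose, beside 12.8% of all genes, and at -1 or less, 5 fell, beside 12.6% of all genes. Under upper-quartile scaling 21 rose and 18 fell, and the median was 0.0753 beside -0.134 over all genes. The groups did not overlap for 51 of the 61 members, beside 80.9% of all genes. Without library F, the number that fell was 7, and the members' median was 0.138 without E and 0.136 without F. Under the study's own threshold, which adds a log2 fold change of 2 or more in either direction, a single member passed in each comparison, *STX7*, which fell in both.

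**Figure D1:**
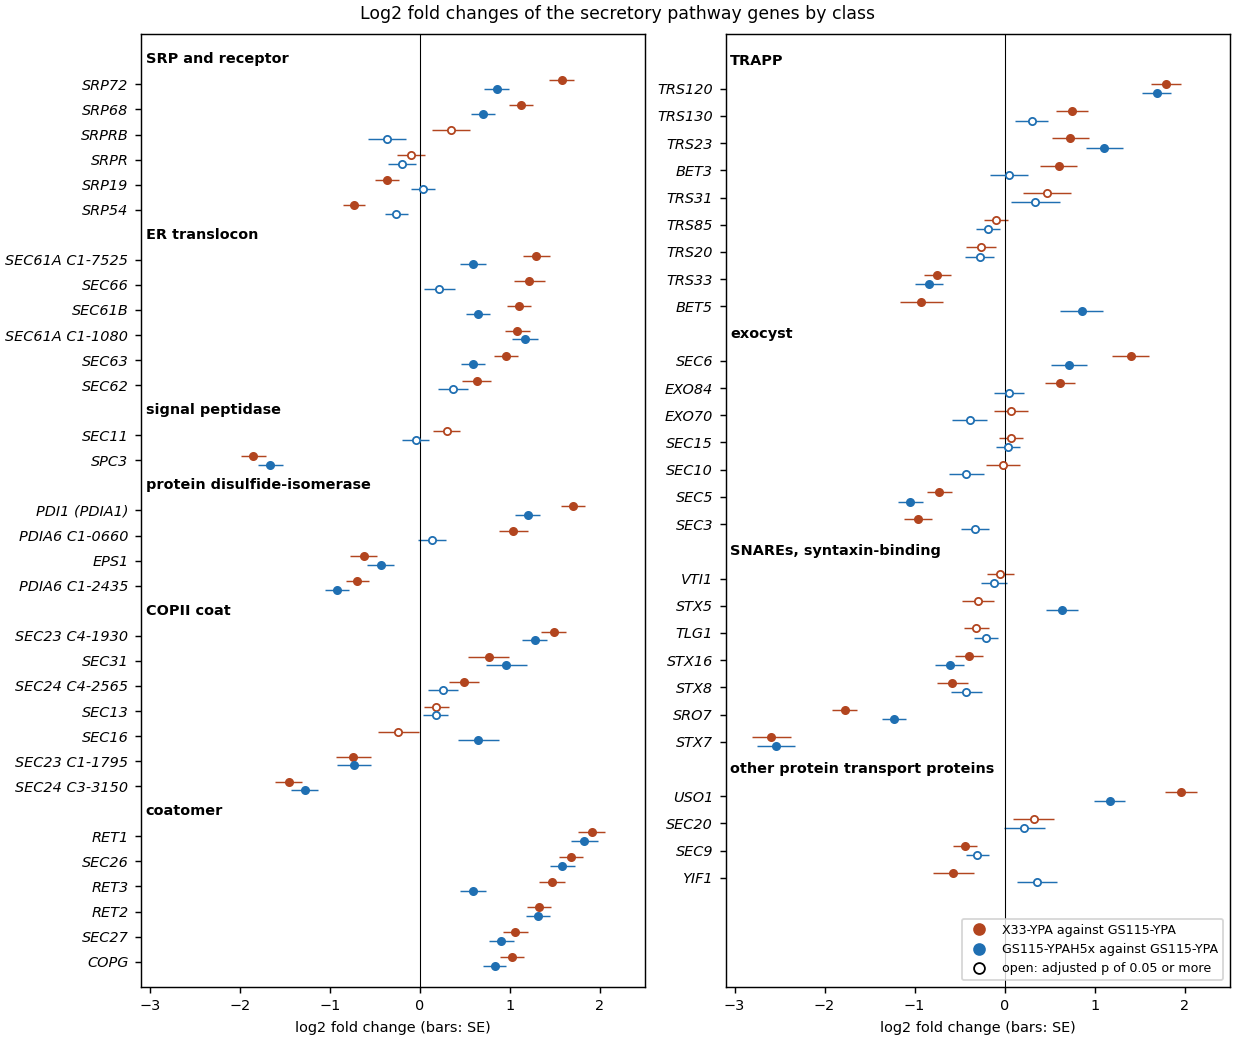
Log2 fold change (x axis, with standard errors as bars) of 58 of the 61 members, grouped by class, in X33-YPA (brown) and GS115-YPAH5x (blue) relative to the shared GS115-YPA control. Filled points passed an adjusted p of 0.05. All 6 coatomer subunits lie to the right of 0 in both comparisons, and *STX7* lies farthest to the left at -2.59 and -2.54.

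Directly compared, 13 members stood above and 8 below their GS115-YPAH5x level in X33-YPA, or 21.3% and 13.1%, beside 19.8% and 21.6% of all genes. The median was 0.105, beside 0.03 over all genes, and 0.0494 without library C. Under upper-quartile scaling 19 stood above and 6 below, with a median of 0.231 beside 0.153 over all genes. Past an absolute log2 fold change of 1 there was 1 member in each direction, *SEC66* higher and *BET5* lower, beside 2.89% and 7.21% of all genes. These calls leaned on single libraries. The number higher was 7 without C, 6 without D, 8 without E and 3 without F, and the number lower was 4 without C and 2 without D or without F. Of the 21 calls, 5 held in each of 13 alternative fits, those of *SEC66*, *RET3*, the *PDIA6* gene BQ9382_C1-0660, *STX5* and *BET5*.

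**Figure D2:**
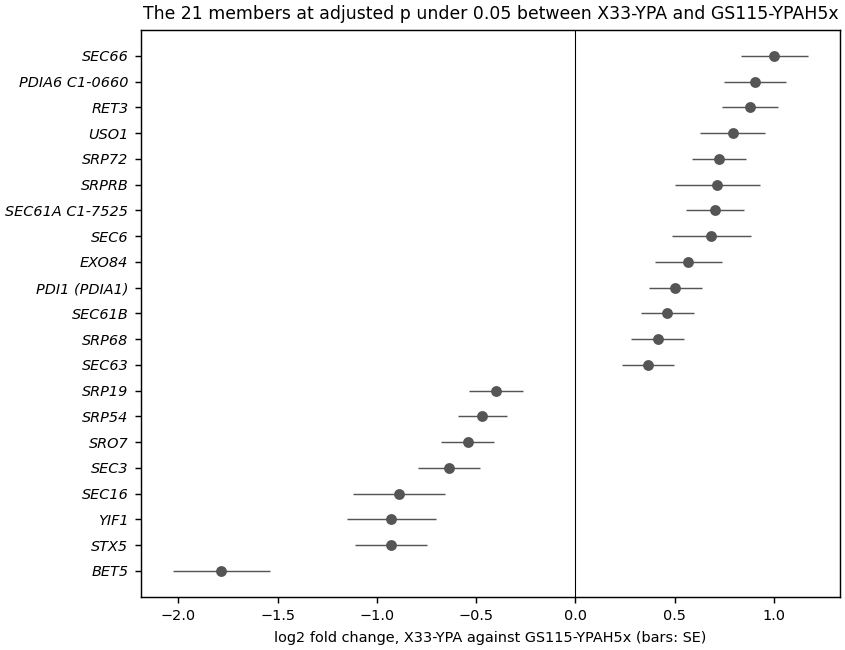
Log2 fold change between X33-YPA and GS115-YPAH5x (x axis, bars are standard errors) for the 21 members at an adjusted p under 0.05, in order of size. The points run from -1.78 for *BET5* to 1.002 for *SEC66*, with 13 above 0 and 8 below.

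Subunits of SRP moved in opposite directions. *SRP72* (BQ9382_C1-5205), whose protein binds the particle's RNA as a dimer with SRP68, had 14.2 and 15.3 CPM (GS115-YPA), 45.5 and 42.7 CPM (X33-YPA) and 28.3 and 25.1 CPM (GS115-YPAH5x). The 3 groups did not overlap, with X33-YPA highest. *SRP72* rose by 1.58 on the log2 scale (SE 0.14, adjusted p = 8.35e-06) in X33-YPA and 0.85 (SE 0.14, adjusted p = 0.000508) in GS115-YPAH5x. *SRP68* (BQ9382_C1-4755) rose by 1.12 and 0.70 on the log2 scale. *SRP54* (BQ9382_C4-3535), encoding the GTPase subunit that binds the signal sequence, had 63.0 and 61.1 CPM (GS115-YPA), 37.9 and 36.8 CPM (X33-YPA) and 50.2 and 53.3 CPM (GS115-YPAH5x). It fell in X33-YPA (-0.73 on the log2 scale, SE 0.12, adjusted p = 0.000558) and did not pass with histidine (-0.26, adjusted p = 0.0923).

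*SRP19*, the remaining particle subunit in the list, fell in X33-YPA by 0.37 on the log2 scale, a call lost without any 1 of libraries B, D, E or F and in the fit of the 4 libraries compared. The receptor subunits *SRPR* and *SRPRB* passed in neither comparison with GS115-YPA. Between X33-YPA and GS115-YPAH5x, *SRP72*, *SRP68* and *SRPRB* were higher (0.72, 0.42 and 0.71) and *SRP54* and *SRP19* lower (-0.47 and -0.40). Each of these 5 calls was lost without library F, and all but that of *SRP72* also without C or without D. Those of *SRP54* and *SRP19* were lost under upper-quartile scaling as well.

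All 6 listed genes of the ER translocon rose in X33-YPA (median log2 fold change 1.09), and 4 of 6 rose in GS115-YPAH5x (median 0.59). That is 100% and 66.7%, beside 33.4% and 30.7% of all genes. There are 2 genes for the channel-forming alpha subunit. The general *SEC61A* gene (BQ9382_C1-1080) had 81.6 and 85.7 CPM (GS115-YPA), 164 and 190.5 CPM (X33-YPA) and 182 and 194 CPM (GS115-YPAH5x). Both histidine-sufficient groups stood above the control and overlapped each other. It rose by 1.08 (SE 0.14, adjusted p = 9.25e-05) and 1.17 (SE 0.14, adjusted p = 7.78e-05) on the log2 scale. The other (BQ9382_C1-7525), annotated as a subunit of the Ssh1 translocon, an alternative channel for co-translational import, had 20.4 and 16.6 CPM (GS115-YPA), 43.2 and 47.4 CPM (X33-YPA) and 28.6 and 27.1 CPM (GS115-YPAH5x). It rose by 1.29 in X33-YPA and by 0.59 with histidine, and stood 1.63-fold higher in X33-YPA than in GS115-YPAH5x (log2 0.70, adjusted p = 0.00498), a call lost without library F.

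*SEC66* (BQ9382_C2-4660), a subunit of the complex for post-translational import, separated *X33* from *GS115* in either medium. It had 15.1 and 11.3 CPM (GS115-YPA), 29.4 and 31.8 CPM (X33-YPA) and 14.5 and 16.1 CPM (GS115-YPAH5x). Both *GS115* groups overlapped, and both X33-YPA libraries lay above them. *SEC66* rose by 1.22 (SE 0.17, adjusted p = 0.000156) in X33-YPA, had a log2 fold change of 0.21 (adjusted p = 0.301) with histidine, and was 2.0-fold higher in X33-YPA than in GS115-YPAH5x (log2 1.002, SE 0.17, adjusted p = 0.00196). Its partners *SEC62* and *SEC63* rose by 0.63 and 0.96 in X33-YPA. With histidine *SEC63* rose by 0.59, a call lost without library E, and *SEC62* did not pass (0.37, adjusted p = 0.0775). The beta subunit gene *SEC61B* (*SBH2*) rose by 1.10 and 0.64.

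**Figure D3:**
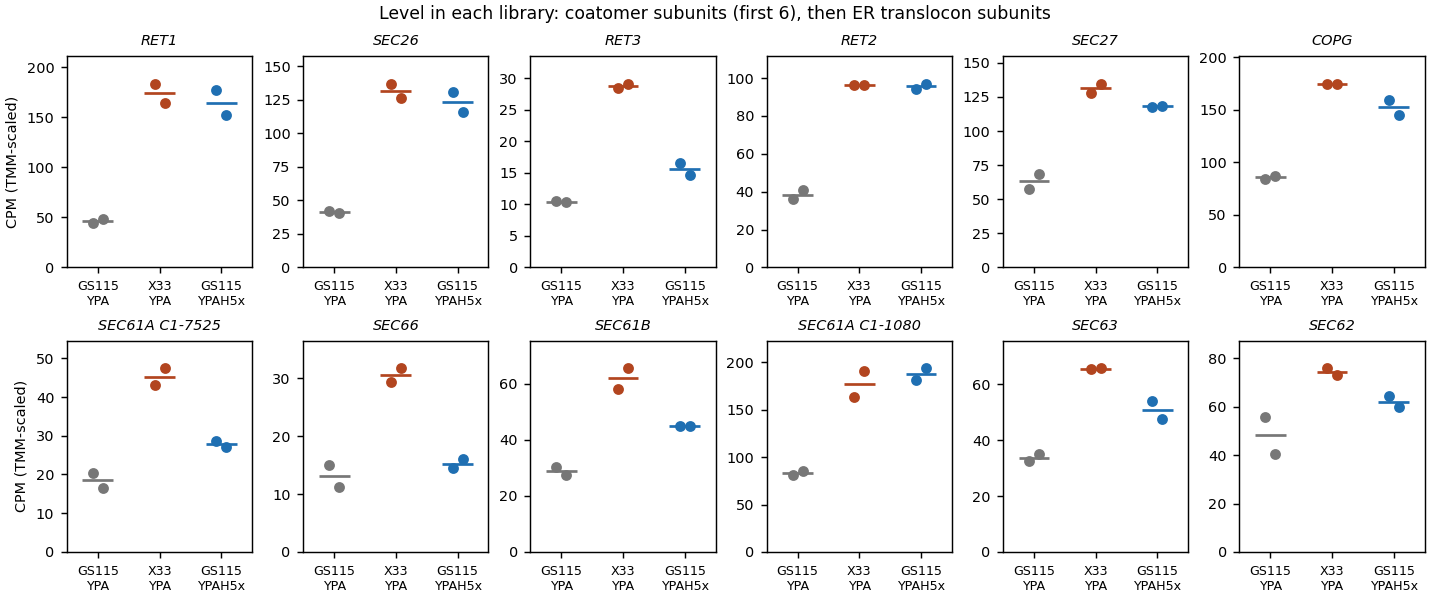
CPM (y axis from 0, a scale for each panel) in each library for the 6 coatomer subunits (upper row) and the 6 ER translocon subunits (lower row); points are libraries and lines are means of 2. In every upper panel both other groups lie above GS115-YPA, while the *SEC66* panel has X33-YPA alone above the *GS115* groups.

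Signal peptidase was represented by 2 genes that behaved differently. *SPC3* (BQ9382_C4-0425), a non-catalytic subunit, had 49.6 and 50.8 CPM (GS115-YPA), 14.7 and 13.1 CPM (X33-YPA) and 15.4 and 16.3 CPM (GS115-YPAH5x). Both other groups lay far below the control. *SPC3* fell by 1.85 (SE 0.14, adjusted p = 3.09e-06) in X33-YPA and by 1.66 (SE 0.14, adjusted p = 7.11e-06) in GS115-YPAH5x, or 3.61-fold and 3.17-fold, with the smallest adjusted p of any member in X33-YPA. The catalytic subunit gene *SEC11* had 14.6 and 14.2 CPM (GS115-YPA), 19.3 and 16.1 CPM (X33-YPA) and 14.1 and 13.8 CPM (GS115-YPAH5x), and passed in neither comparison (log2 fold changes 0.30 and -0.05, adjusted p 0.112 and 0.801).

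The 4 protein disulfide-isomerase genes split in X33-YPA, with 2 higher and 2 lower (50% each, beside 33.4% and 32.8% of all genes). *PDI1*, annotated as *PDIA1* (BQ9382_C4-0580) and encoding the main oxidase and isomerase of ER disulfide bonds, had 449 and 413 CPM (GS115-YPA), 1391 and 1411 CPM (X33-YPA) and 1010 and 966 CPM (GS115-YPAH5x). The groups did not overlap. It rose 3.25-fold in X33-YPA (log2 1.70, SE 0.14, adjusted p = 5.05e-06) and 2.29-fold with histidine (log2 1.20, SE 0.14, adjusted p = 5.5e-05). The direct difference (log2 0.50, adjusted p = 0.0148) was lost without any 1 of C, D, E or F.

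Of the 2 genes annotated as *PDIA6*, BQ9382_C1-0660 had 11.9 and 9.65 CPM (GS115-YPA), 21.9 and 22.4 CPM (X33-YPA) and 11.8 and 11.9 CPM (GS115-YPAH5x). As for *SEC66*, X33-YPA alone stood apart. This gene rose by 1.04 (adjusted p = 0.000264) in X33-YPA, had a log2 fold change of 0.13 (adjusted p = 0.49) with histidine, and was 1.87-fold higher in X33-YPA than in GS115-YPAH5x (adjusted p = 0.00224). The other, BQ9382_C1-2435, fell in both (-0.70 and -0.93). *EPS1*, encoding a membrane-bound family member, fell by 0.62 and 0.43, the latter a call lost without B, E or F. ER chaperones and their cofactors outside the rule numbered 5, with no oxidase in the list. X33-YPA had 1 of these 5 up and 2 down (20% and 40%, beside 33.4% and 32.8% of all genes). GS115-YPAH5x had 1 up and 3 down (20% and 60%, beside 30.7% and 29.1%). One of those that fell was the Hsp70 chaperone BiP (*HSPA5*, named here after its values were seen), which had 20680 and 20690 CPM (GS115-YPA), 8956 and 10030 CPM (X33-YPA) and 13400 and 15170 CPM (GS115-YPAH5x) (log2 fold changes -1.12 and -0.53, adjusted p 9.35e-05 and 0.00979). *PDI1* and BiP, both resident folding proteins of the ER lumen, thus moved in opposite directions.

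In the COPII coat, 3 of 7 genes rose and 2 fell in each comparison with GS115-YPA, although without library A or without D only 1 rose in X33-YPA. The 3 and 2 genes are 42.9% and 28.6% of the class, beside 33.4% and 32.8% of all genes in X33-YPA. In GS115-YPAH5x the shares of all genes were 30.7% and 29.1%. Both inner-coat proteins had 2 annotated genes, and within each pair the genes moved in opposite directions in X33-YPA. The *SEC23* gene BQ9382_C4-1930 had 31.7 and 31.8 CPM (GS115-YPA), 86.0 and 92.0 CPM (X33-YPA) and 83.7 and 69.8 CPM (GS115-YPAH5x), and rose by 1.49 (SE 0.14, adjusted p = 1.29e-05) and 1.27 (SE 0.14, adjusted p = 4.53e-05). The *SEC23* gene BQ9382_C1-1795 had 8.36 and 7.61 CPM (GS115-YPA), 4.90 and 4.67 CPM (X33-YPA) and 5.09 and 4.50 CPM (GS115-YPAH5x). It fell by 0.74 and 0.73 on the log2 scale, the latter lost without library F.

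The *SEC24* gene BQ9382_C3-3150, whose protein selects cargo, had 421 and 528 CPM (GS115-YPA), 169 and 176 CPM (X33-YPA) and 197 and 193 CPM (GS115-YPAH5x). All 4 other libraries lay well below the control pair. It fell by 1.46 (SE 0.15, adjusted p = 2.47e-05) and 1.28 (SE 0.15, adjusted p = 7.17e-05), or 2.75-fold and 2.43-fold. The *SEC24* gene BQ9382_C4-2565 had 12.5 and 13.7 CPM (GS115-YPA) and 17.3 and 19.4 CPM (X33-YPA), where it rose by 0.49 (adjusted p = 0.0254), a call lost without A, C or D. It did not pass with histidine (0.26, adjusted p = 0.203). Reads may have been shared between the genes of such pairs. This was not tested, and it would make their values less certain than those of single genes.

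The outer-coat gene *SEC31* (BQ9382_C1-5330) had 44.8 and 79.3 CPM (GS115-YPA), 96.9 and 114 CPM (X33-YPA) and 125 and 117 CPM (GS115-YPAH5x). Its control duplicates differed widely and still lay below the other groups. It rose by 0.76 (adjusted p = 0.015), a call lost without A or D, and by 0.96 (adjusted p = 0.00547). *SEC13*, the other outer-coat gene, passed in neither (0.18 and 0.17). *SEC16* (BQ9382_C4-4810), which organises ER exit sites, had 38.4 and 69.5 CPM (GS115-YPA), 44.6 and 46.6 CPM (X33-YPA) and 85.1 and 83.8 CPM (GS115-YPAH5x). It rose with histidine (0.65, adjusted p = 0.0332) and was lower in X33-YPA than in GS115-YPAH5x (-0.89, adjusted p = 0.0131). The first call was lost without A, C, D, E or F, under upper-quartile scaling and in the fit of the 4 libraries compared, and the second without C, D or F.

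**Figure D4:**
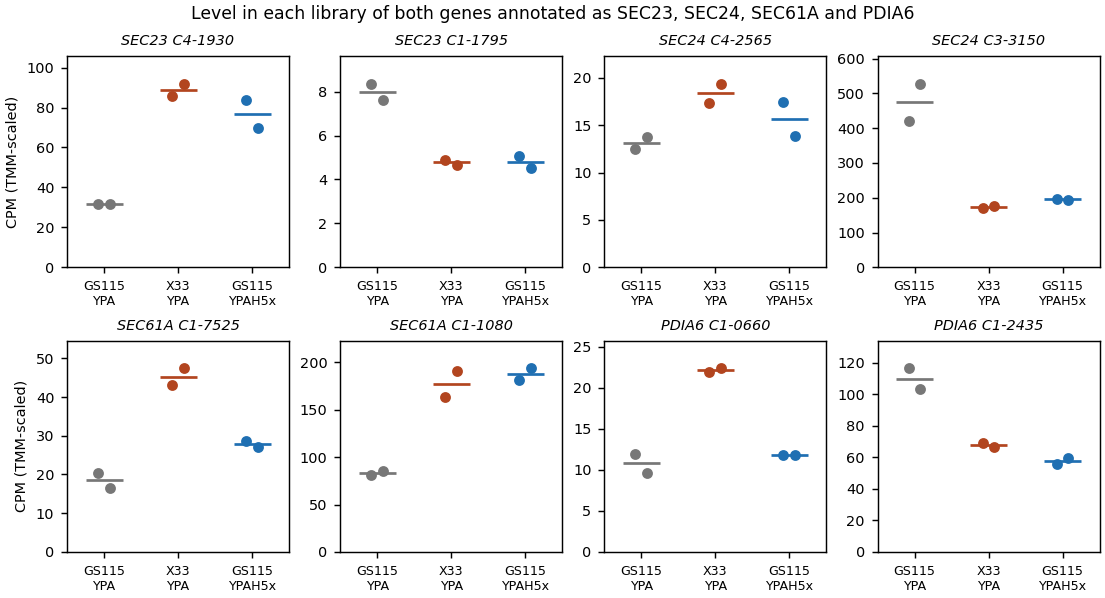
CPM (y axis from 0, a scale for each panel) in each library for both genes annotated as *SEC23*, *SEC24*, *SEC61A* and *PDIA6*; points are libraries and lines are means of 2. The *SEC23* and *SEC24* pairs each hold a gene below and a gene above its GS115-YPA level in X33-YPA.

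Coatomer was the 1 class in which every gene rose in both comparisons. All 6 listed subunits rose in X33-YPA (median log2 fold change 1.40, range 1.02 to 1.91) and all 6 in GS115-YPAH5x (median 1.11, range 0.58 to 1.83). Among all genes, 33.4% and 30.7% rose. Libraries of the control and of the group compared overlapped for none of the 6 in either comparison. Overlap was also absent for 81.5% of all genes in X33-YPA and 80.9% in GS115-YPAH5x, so this sets few genes apart. The alpha subunit gene *RET1* (*COPA*, BQ9382_C1-3150) had 44 and 48.7 CPM (GS115-YPA), 183 and 164.5 CPM (X33-YPA) and 177 and 152 CPM (GS115-YPAH5x). It rose 3.75-fold (log2 1.91, SE 0.15, adjusted p = 4.1e-06) and 3.55-fold (log2 1.83, SE 0.15, adjusted p = 6.78e-06). The beta subunit gene *SEC26* (*COPB1*, BQ9382_C4-0825) had 41.8 and 40.5 CPM (GS115-YPA), 137 and 126 CPM (X33-YPA) and 130.5 and 116 CPM (GS115-YPAH5x), and rose by 1.68 and 1.58 on the log2 scale.

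The delta subunit gene *RET2*, the beta-prime gene *SEC27* and the gamma gene *COPG* rose by 1.33, 1.06 and 1.02 in X33-YPA and by 1.31, 0.90 and 0.83 in GS115-YPAH5x. The zeta subunit gene *RET3* (*COPZ*, BQ9382_C1-5795) departed from this pattern. It had 10.5 and 10.4 CPM (GS115-YPA), 28.5 and 29.1 CPM (X33-YPA) and 16.6 and 14.7 CPM (GS115-YPAH5x), so that the groups fell into 3 separate levels. *RET3* rose by 1.47 (SE 0.14, adjusted p = 1.73e-05) in X33-YPA and by 0.58 (SE 0.14, adjusted p = 0.00625) with histidine, a call lost without library E. It was the 1 coatomer gene that differed between X33-YPA and GS115-YPAH5x (1.84-fold, adjusted p = 0.0016), while the other 5 had log2 differences of 0.01 to 0.20 with standard errors of 0.13 to 0.14. All 6 calls in X33-YPA held in every alternative fit. The gene named as the epsilon subunit (BQ9382_C3-2725) was not taken by the rule and was added after the data were seen. It had 44.3 and 46.8 CPM (GS115-YPA), 109 and 101 CPM (X33-YPA) and 86.4 and 91.7 CPM (GS115-YPAH5x). This gene rose by 1.205 and 0.967 on the log2 scale. The 27 genes that met the rule by protein name alone, this one included, were mixed. Of them, 13 were higher and 6 lower in X33-YPA, and 7 were higher and 7 lower in GS115-YPAH5x. In X33-YPA that is 48.1% and 22.2%, beside 33.4% and 32.8% of all genes. In GS115-YPAH5x it is 25.9% each, beside 30.7% and 29.1%.

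Cargo receptors of COPI and COPII vesicles, which the rule did not take, rose in 7 of 9 cases in X33-YPA (median log2 fold change 1.07). In GS115-YPAH5x 6 of 9 rose (median 0.57), and none fell in either comparison. These are 77.8% and 66.7%, beside 33.4% and 30.7% of all genes. The receptor genes BQ9382_C2-3520, BQ9382_C2-5465 and BQ9382_C3-1660, which rose in both comparisons, were also counted above among the genes taken by protein name alone. *KDELR*, the receptor that returns escaped ER proteins in COPI vesicles, was singled out among them after its values were seen. It rose by 1.32 in X33-YPA (adjusted p = 0.000129), had a log2 fold change of 0.12 with histidine (adjusted p = 0.6), and was higher in X33-YPA than in GS115-YPAH5x by 1.20 (adjusted p = 0.00115).

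Among the 9 TRAPP genes, which encode tethers of Golgi-bound vesicles, 6 passed in X33-YPA (4 up, 2 down) and 4 in GS115-YPAH5x (3 up, 1 down). In X33-YPA that is 44.4% up and 22.2% down, beside 33.4% and 32.8% of all genes. In GS115-YPAH5x it is 33.3% and 11.1%, beside 30.7% and 29.1%. *TRS120* (BQ9382_C2-6355), a subunit particular to the TRAPPII form, had 11.2 and 11.5 CPM (GS115-YPA), 44.8 and 33.8 CPM (X33-YPA) and 36.2 and 36.9 CPM (GS115-YPAH5x). It rose by 1.79 (SE 0.16, adjusted p = 9.82e-06) and 1.69 (SE 0.16, adjusted p = 1.83e-05), or 3.46-fold and 3.22-fold. *TRS130*, the other TRAPPII subunit in the list, rose by 0.75 in X33-YPA and did not pass with histidine (0.30, adjusted p = 0.175). *TRS33*, a core subunit, had 44.4 and 34.9 CPM (GS115-YPA), 24.3 and 23.0 CPM (X33-YPA) and 21.1 and 23.2 CPM (GS115-YPAH5x), and fell by 0.75 and 0.84.

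*BET5* (BQ9382_C2-1300), a core TRAPP subunit, was the 1 member that fell in X33-YPA and rose in GS115-YPAH5x. It had 51.6 and 28.2 CPM (GS115-YPA), 22.1 and 19.8 CPM (X33-YPA) and 75.5 and 68.7 CPM (GS115-YPAH5x). The control duplicates differed by more than 1.5-fold, lying between the other groups without overlapping either. The log2 fold changes were -0.93 (SE 0.24, adjusted p = 0.00669) and 0.86 (SE 0.24, adjusted p = 0.0112), and X33-YPA lay 3.44-fold below GS115-YPAH5x (log2 -1.78, SE 0.24, adjusted p = 0.000753). Without library A or without library B these log2 fold changes ranged from -1.30 to -0.47 in X33-YPA and from 0.48 to 1.32 in GS115-YPAH5x, and each remained below an adjusted p of 0.05 in all 13 alternatives.

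The remaining TRAPP genes had smaller log2 fold changes than *TRS120*. *TRS23* rose by 0.73 and 1.11, the first call lost without A or C. *BET3* rose by 0.60 in X33-YPA, a call lost without B or D, and had 0.05 with histidine. The core subunit genes *TRS31* and *TRS20* and *TRS85*, whose protein is particular to the TRAPPIII form, passed in neither comparison, with log2 fold changes between -0.28 and 0.47. *TRS31* was the least abundant of the class, at 1.49 to 2.38 CPM, and its standard errors of 0.27 limited what could be detected.

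The exocyst tethers secretory vesicles to the plasma membrane, and its 7 listed subunits did not move together. X33-YPA had 2 up and 2 down (28.6% each), shares near the 33.4% and 32.8% of all genes. GS115-YPAH5x had 1 up and 1 down (14.3% each), beside 30.7% and 29.1% of all genes, and 4 fell there under upper-quartile scaling. *SEC6* (BQ9382_C1-6545) had 12.4 and 8.25 CPM (GS115-YPA), 29.0 and 25.4 CPM (X33-YPA) and 18.1 and 15.7 CPM (GS115-YPAH5x), and the groups did not overlap. It rose by 1.40 (SE 0.20, adjusted p = 0.000193) and by 0.71 (SE 0.20, adjusted p = 0.0123), the latter lost without library E. *SEC5* (BQ9382_C3-1770) had 36.9 and 38.6 CPM (GS115-YPA), 24.0 and 21.7 CPM (X33-YPA) and 19.3 and 17.2 CPM (GS115-YPAH5x). It moved the opposite way to its complex partner *SEC6*, falling by 0.72 and 1.05.

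*SEC3*, a subunit that marks sites of exocytosis, had 15.3 and 17.5 CPM (GS115-YPA), 8.67 and 8.20 CPM (X33-YPA) and 12.7 and 13.6 CPM (GS115-YPAH5x). It fell by 0.96 (adjusted p = 0.000433) in X33-YPA, had a log2 fold change of -0.33 (adjusted p = 0.0951) with histidine, and was lower in X33-YPA than in GS115-YPAH5x (-0.64, adjusted p = 0.0112), a call lost without D or F. *EXO84* rose by 0.62 in X33-YPA, a call lost without library D, and had 0.05 with histidine. *SEC10*, *SEC15* and *EXO70* passed in neither comparison, with log2 fold changes between -0.42 and 0.07.

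The SNARE genes *SEC9* and *SEC20* were described as protein transport proteins and are counted with those below. Of the 9 genes classed as SNARE and syntaxin-binding, 1 was higher and 4 lower in X33-YPA (median -0.315). In GS115-YPAH5x 2 were higher and 4 lower (median -0.425). Without library F, 0 were higher and 2 lower in GS115-YPAH5x, and without any other single library 1 was higher. The gene annotated as syntaxin 7 and as the vacuolar SNARE Vam3 (*STX7*, BQ9382_C2-2035) had 122.5 and 76.0 CPM (GS115-YPA), 17.1 and 15.9 CPM (X33-YPA) and 17.1 and 17.1 CPM (GS115-YPAH5x). The control duplicates differed from each other and lay far above the remaining libraries, which did not separate. *STX7* fell by 2.59 (SE 0.21, adjusted p = 5.59e-06) and 2.54 (SE 0.21, adjusted p = 7.81e-06), or 6.03-fold and 5.81-fold, the furthest fall of any member in both comparisons.

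*SRO7* (annotated *STXBP5*, BQ9382_C1-4415), whose protein binds the SNARE Sec9 and acts in exocytosis, had 246.5 and 269 CPM (GS115-YPA), 73.9 and 76.5 CPM (X33-YPA) and 106 and 113 CPM (GS115-YPAH5x). The groups did not overlap and X33-YPA was lowest. It fell by 1.78 (SE 0.14, adjusted p = 3.75e-06) and 1.23 (SE 0.13, adjusted p = 4.17e-05).

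*STX5* (BQ9382_C1-4175), the SNARE of the early Golgi, had 13.4 and 15.0 CPM (GS115-YPA), 13.4 and 9.75 CPM (X33-YPA) and 21.1 and 23.0 CPM (GS115-YPAH5x). It rose with histidine (0.63, adjusted p = 0.0122), a call lost without A or F, had -0.30 in X33-YPA (adjusted p = 0.173), and was 1.91-fold lower in X33-YPA than in GS115-YPAH5x (adjusted p = 0.00378). The SNARE genes *STX16* and *STX8* had log2 fold changes of -0.61 to -0.40 across both comparisons. *STX16* fell in both and *STX8* in X33-YPA. The *STX16* fall in X33-YPA was lost in 7 of 13 alternatives, that of *STX8* without library C, and that of *STX16* with histidine without F. *TLG1* and *VTI1*, SNAREs of the late Golgi and endosome, passed in neither.

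**Figure D5:**
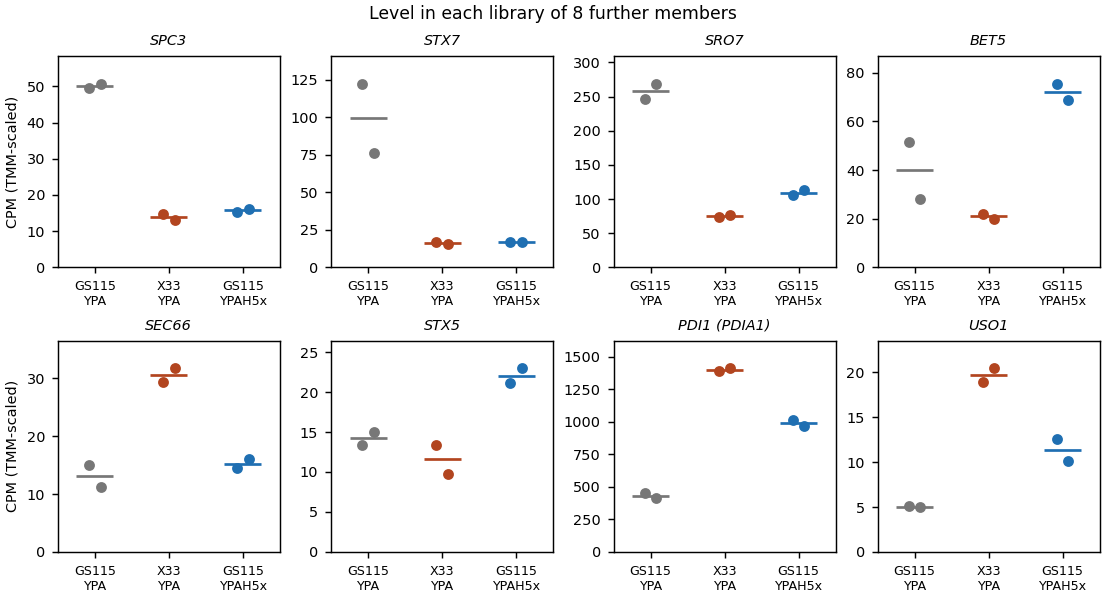
CPM (y axis from 0, a scale for each panel) in each library for 8 further members; points are libraries and lines are means of 2. *SPC3*, *STX7* and *SRO7* are highest in GS115-YPA, *BET5* and *STX5* are highest in GS115-YPAH5x, and *SEC66*, *PDI1* and *USO1* are highest in X33-YPA (for *PDI1*, 1391 and 1411 CPM).

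Of the remaining protein transport genes, *USO1* (BQ9382_C4-4855), encoding a coiled-coil tether between ER and Golgi, had the highest fold change of any member in X33-YPA. It had 5.11 and 5.02 CPM (GS115-YPA), 18.9 and 20.5 CPM (X33-YPA) and 12.6 and 10.1 CPM (GS115-YPAH5x), without overlap between groups. *USO1* rose 3.89-fold (log2 1.96, SE 0.17, adjusted p = 9.01e-06) and 2.25-fold (log2 1.17, SE 0.17, adjusted p = 0.000304), and its direct difference (0.79, adjusted p = 0.00534) was lost without library F. *YIF1*, a membrane protein of ER-to-Golgi transport, had 10.3 and 16.5 CPM (GS115-YPA), 9.93 and 8.15 CPM (X33-YPA) and 16.3 and 18.0 CPM (GS115-YPAH5x). It fell in X33-YPA (-0.57, adjusted p = 0.0469), a call lost without B, C, D or E and in the fit of the 4 libraries compared, and was lower there than in GS115-YPAH5x (-0.93, adjusted p = 0.0104), a call lost without D or F.

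The plasma membrane SNARE gene *SEC9*, a partner of Sro7, fell by 0.44 in X33-YPA, a call lost without library C, and had -0.30 with histidine (adjusted p = 0.0716). The Golgi-to-ER SNARE gene *SEC20* passed in neither comparison (0.32 and 0.22).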

How the data were processed

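The authors sequenced 6 rRNA-depleted libraries (2 per group, 3 groups) and deposited whole-number read counts per gene. Tools listed by the submitters, with no parameters, are featureCounts 1.6.4, Bowtie2, DESeq2, fastp 0.19.6 and bcl2fastq 2.19.0.316. Neither genome build nor strand setting is given in the sources used here. Overlapping or antisense genes therefore cannot be told apart.

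Counts were tested with edgeR 4.0.16 in R 4.3.3 (filterByExpr, TMM scaling, glmQLFit with legacy=TRUE, glmQLFTest) in 1 fit of all 6 libraries with 3 residual degrees of freedom (common biological coefficient of variation 0.132, median SE 0.164). p-values were Benjamini-Hochberg adjusted over 5426 genes, with a threshold of 0.05. The fit was tested on simulated data in which every gene and group had the common coefficient of variation. That test cannot show how the fit handles the wider spread between the GS115-YPA duplicates. Duplicates differed beyond sampling noise (chi-square per degree of freedom 40.9 to 141) and were kept as separate samples.

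Classes followed the description text. By rule, members were named for a log2 fold change of 2 or more in either direction (1 in the direct comparison), for the extremes or highest level of a class, or for a place among the 5 smallest adjusted p of a comparison (33 genes). The others are named to complete their class, except 3 that are counted in every total and not reported here. The members and lists were chosen with earlier results of these data known. Alternatives were other scalings (upper quartile, DESeq2 size factors), filters (none; CPM of at least 1 in 2 libraries), the DESeq2 1.42.0 Wald test, a fit of the 4 libraries compared, each library left out, other thresholds, and membership. Leaving out the 10 most abundant genes before scaling, and adding protein names that meet the rule, were chosen after seeing the data. No sequences or coordinates of these genes were used here.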

Additional observations from a re-analysis of the deposited data

How the results depend on the processing

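No called member changed sign under any of the 13 alternative fits. Of the calls in X33-YPA, GS115-YPAH5x and the direct comparison, 34 of 44, 24 of 34 and 5 of 21 held in all of them. When a log2 fold change of 2 or more in either direction was also asked for, 0 members were higher and 1 lower in X33-YPA, 0 and 1 in GS115-YPAH5x, and 0 and 0 directly. Upper-quartile scaling moved the median of all genes by -0.13 (log2) in GS115-YPAH5x and by 0.13 directly. Under it 18 members were lower in GS115-YPAH5x, and the members' median was 0.0753 in GS115-YPAH5x and 0.23 directly. At an adjusted p under 0.01, 6 members were higher and 2 lower directly. With the protein names that meet the rule added, 18 were lower in GS115-YPAH5x and 22 higher directly. Leaving out 1 library at a time gave 23 to 28 higher and 14 to 17 lower members in X33-YPA, 18 to 24 and 7 to 14 in GS115-YPAH5x, and 3 to 17 and 2 to 8 directly. The members' median then ranged from 0.18 to 0.30, from 0.136 to 0.173 and from 0.0494 to 0.156. A group reduced to 1 library was assumed to vary like the others. The cause of these differences was not tested. No paired analysis was possible because each library carries its own letter. *TRS31*, at 1.49 to 2.38 CPM, had standard errors of 0.27, so small differences there could not be detected at this depth.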

Other observations

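Outside the rule, 91 further genes of the pathway were listed by their descriptions, of which 40 were higher and 19 lower in X33-YPA (44% and 20.9%, beside 33.4% and 32.8% of all genes) and 36 and 19 in GS115-YPAH5x (39.6% and 20.9%, beside 30.7% and 29.1%). Of 7 genes of the COG complex, a tether within the Golgi, 4 rose in each comparison (57.1%), and 0 fell in X33-YPA and 1 (14.3%) in GS115-YPAH5x. Genes described by vacuolar protein sorting, some of which match by name alone, had 18 of 39 higher and 7 lower in X33-YPA (46.2% and 17.9%) and 16 and 7 in GS115-YPAH5x (41.0% and 17.9%). The list of secretory small GTPases had 3 genes, 2 higher and 1 lower in X33-YPA and 0 higher and 1 lower in GS115-YPAH5x. The gene that fell, by 0.48 and 0.80, was BQ9382_C1-0315, annotated as a subunit of the exchange factor for Ypt6 and not itself a GTPase. Of the GTPases that recruit vesicle coats, *SAR1* (COPII) rose by 0.47 in X33-YPA and had -0.15 in GS115-YPAH5x, and *ARF1* (COPI) rose by 0.70 and had 0.14. Both were higher in X33-YPA than in GS115-YPAH5x (0.62 and 0.56, edgeR adjusted p 0.00833 and 0.01015). *HAC1*, the transcription factor of the unfolded protein response, rose by 0.83 and 0.92, and *ERN1* (*IRE1*), its upstream sensor, by 0.72 with histidine alone (0.24, adjusted p = 0.161, in X33-YPA).

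Clathrin and adaptor genes were mixed, with 6 of 23 higher and 8 lower in X33-YPA (26.1% and 34.8%) and 6 and 6 in GS115-YPAH5x (26.1% each), shares near those of all genes. The genes below were singled out after their values were seen. Calls of single genes outside the rule, here and above, were not examined in the alternative fits. *AP2A*, of the endocytic adaptor, had 102 and 103 CPM (GS115-YPA), 11.5 and 14.8 CPM (X33-YPA) and 20.1 and 20.5 CPM (GS115-YPAH5x). It fell in both (log2 fold changes -2.96 and -2.34). Of the same adaptor, *AP2M1* also fell (-1.40 and -1.05), while *AP2S1* rose in X33-YPA (1.19) and did not pass in GS115-YPAH5x (-0.16). The AP-1 mu subunit gene *AP1M*, of the Golgi and endosome adaptor, had 43.4 and 55.9 CPM (GS115-YPA), 43.5 and 34.8 CPM (X33-YPA) and 122.9 and 100.7 CPM (GS115-YPAH5x). It rose with histidine by 1.17 and was lower in X33-YPA than in GS115-YPAH5x by 1.51 on the log2 scale (adjusted p = 0.000444). Among the other AP-1 genes, *AP1G1* rose with histidine (1.145), *AP1S1_2* fell (-0.90) and *AP1B1* did not pass (0.14). *AP1S1_2* had 14.4 and 7.38 CPM (GS115-YPA) and 5.58 and 6.08 CPM (GS115-YPAH5x), so its control duplicates lay far apart. The control duplicates of *AP2S1* did so too, at 11.2 and 5.80 CPM. A gene named only as SEC31 by its protein name (BQ9382_C1-5650), in no class above, had 20.2 and 18.8 CPM (GS115-YPA), 26.1 and 29.0 CPM (X33-YPA) and 121 and 115 CPM (GS115-YPAH5x). It rose by 0.50 and by 2.60 on the log2 scale, and differed between X33-YPA and GS115-YPAH5x by -2.10 (adjusted p = 2.61e-05).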
